A study of Mus musculus with 10 samples.

Results

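The genes described here encode the nuclear subunits of the oxidative phosphorylation machinery, complexes I to V of the mitochondrial inner membrane. They were taken by name from the array: every non-control probe whose gene name begins with Nduf, Uqcr, Cox4 to Cox8 or Atp5, or is Sdha, Sdhb, Sdhc or Sdhd. This gave 134 of 41174 probes and 92 of 27191 genes, each gene read by its brightest probe. By complex these were 37 genes of complex I, 4 of complex II, 8 of complex III, 18 of complex IV and 15 of complex V. The names also took in 7 assembly factors of complex I (Ndufaf1 to Ndufaf7), 2 genes that are not subunits (Atp5s and Atp5sl) and the pseudogene Atp5c1-ps. Of the 92, 88 were tested, each well above background on every array of 1 or more groups. The other 4, Cox4i2, Cox7b2, Cox8b and Cox8c, were well above background on 0 of 10 arrays.

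Total RNA of mouse cells was hybridised to 10 one-colour arrays, 2 in each of 5 groups. The leukemias were B-cell acute lymphoblastic leukemias taken from lymph nodes of mice 686, 713 and 760, genotype Ebf1+/- Pax5+/- (double heterozygous, dHet). The dHet pro-B cells were Ebf1+/- Pax5+/- Rag2-/- cells grown from c-Kit-positive fetal liver cells on OP9 feeders in the presence of stem cell factor, Flt3L and IL-7, so they also lack Rag2 and come from culture. The wt pro-B cells were Ebf1+/+ Pax5+/+ Fraction BC cells sorted from bone marrow of control mice. Ages are not in the labels, and no label describes a sort of the leukemic cells. The labels also do not say whether the 2 arrays of a group are separate animals or cultures, so p-values measure the spread between these samples, which may be technical.

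Complexes I and II pass electrons from NADH and succinate to coenzyme Q, complex III passes them to cytochrome c, and complex IV passes them to oxygen. Complexes I, III and IV pump protons, and complex V, the ATP synthase, uses the proton gradient to make ATP. Most subunits are nuclear genes, a few core subunits are encoded by the mitochondrial genome, and the promoters of many nuclear subunit genes carry sites for NRF1, ETS-family factors and YY1. Several complex IV subunits and subunit c of the ATP synthase exist as alternative gene copies with different tissue use.

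The promoters of 4 members are shown, all of which rose in the leukemias against wt, by different amounts. Atp5g1 had the largest rise of any subunit, and Sdhb and Uqcr11 the largest of complexes II and III. Cox6a1 is the common copy of a subunit whose other copy, Cox6a2, fell and is not shown. Each line is the 250 bases before the RefSeq start site on GRCm38.p6, 5′ to 3′ on the gene's own strand: Atp5g1 at chr11:96075632-96075881 (reverse strand), Sdhb at chr4:140961021-140961270 (forward strand), Uqcr11 at chr10:80406822-80407071 (reverse strand) and Cox6a1 at chr5:115348959-115349208 (reverse strand). Capitals mark matches, on either strand, to the NRF1 motif GCGCATGC, the E-box CACGTG, the ETS motif CCGGAAG or the YY1 motif AAGATGGCG.
Atp5g1: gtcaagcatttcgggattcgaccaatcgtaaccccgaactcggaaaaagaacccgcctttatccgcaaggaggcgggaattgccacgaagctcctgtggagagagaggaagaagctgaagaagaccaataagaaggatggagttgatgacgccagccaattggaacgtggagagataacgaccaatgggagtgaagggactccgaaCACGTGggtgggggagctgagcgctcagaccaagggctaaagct
Sdhb: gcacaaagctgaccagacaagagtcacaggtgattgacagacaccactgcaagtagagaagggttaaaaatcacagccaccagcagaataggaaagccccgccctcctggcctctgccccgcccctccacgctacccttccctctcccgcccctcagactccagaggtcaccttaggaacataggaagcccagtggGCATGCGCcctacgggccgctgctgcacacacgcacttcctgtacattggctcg
Uqcr11: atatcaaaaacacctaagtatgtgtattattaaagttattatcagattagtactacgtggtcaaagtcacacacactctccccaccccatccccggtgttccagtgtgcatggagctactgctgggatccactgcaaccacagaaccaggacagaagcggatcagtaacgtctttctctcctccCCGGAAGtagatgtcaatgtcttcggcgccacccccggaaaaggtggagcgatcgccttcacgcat
Cox6a1: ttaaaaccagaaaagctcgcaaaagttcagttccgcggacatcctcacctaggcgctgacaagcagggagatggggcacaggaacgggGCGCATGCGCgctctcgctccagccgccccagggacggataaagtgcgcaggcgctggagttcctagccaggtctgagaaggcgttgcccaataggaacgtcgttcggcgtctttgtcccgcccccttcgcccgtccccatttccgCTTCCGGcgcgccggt
The Atp5g1 stretch holds an E-box starting 44 bases before the start site. The Sdhb stretch holds an NRF1 match 54 bases before it and the Uqcr11 stretch an ETS match 66 bases before it. Sdhb has a further match, to the ETS motif, that lies past the start site. Uqcr11 has a further match, to the NRF1 motif, that reaches across the start site. Neither is shown. In Cox6a1 a pair of NRF1 matches on opposite strands overlap, starting 162 and 160 bases before the start site, and an ETS match starts 16 bases before it.

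RefSeq windows reaching from 250 bases before the start site to 50 after it were at hand for 68 of the 82 subunit genes. The NRF1 motif was in 14.7% of them (10 windows) and in 2.8% of the windows of all 27025 genes. The ETS motif was in 22.1% (15) against 9.12%, the YY1 motif in 8.82% (6) against 1.49%, and the E-box in 8.82% (6) against 7.24%. In all, 31 of the 68 (45.6%) held at least 1 of the 4 motifs, against 18.5% of all windows. The member windows were also richer in G and C, with a median of 57.3% against 52.7%, and the part of this in the motif shares was not tested. These matches are letters in a window and are no measure of binding. Of the 15 genes with an ETS match, 14 were higher in the leukemias against wt, and 39 of the 51 tested genes without it were. For the NRF1 motif the counts were 7 of 10 with a match and 46 of 56 without. For the E-box they were 6 of 6 with a match and 47 of 60 without, and the YY1 motif gave the same counts.

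Levels below are log2 of the processed intensity minus the array's 75th percentile, so 0 is that percentile and a difference of 1 is 2-fold. Levels of different probes are not compared with each other. Between 35.7% (leukemia 686 replicate 1) and 52.4% of spots were well above background, and no spot was saturated; 87 of the 88 members tested were well above background on all 10 arrays and Cox6b2 on 9. The replicate 1 arrays of the leukemias lay on slide 1, the replicate 2 arrays on slide 2 and all pro-B arrays on slide 3. Leukemia and pro-B cells therefore share no slide, so that a slide effect cannot be told apart from the difference between them. Slide 1 was scanned on day 1 and slides 2 and 3 on day 2. Scan day as a block thus takes the difference between leukemia and pro-B cells from slide 2, as does slide 2 alone. In the leukemias, 60 of the 88 members (68.2%) differed between slides 1 and 2 in the same direction in all 3 mice, against 65.7% of all genes. The median size of the difference was 0.33 over the members and 0.40 over all genes. Averaged over the mice, 69 of the 88 members read higher on slide 1, and 9065 of all 14430 genes did. The 3 comparisons below share their samples and are not independent of each other.

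In the leukemias, transcripts of the respiratory chain and ATP synthase were for the most part higher than in wt pro-B cells. Genes passed as higher in each of the 5 complexes, though with quantile normalization and in the authors' table the rises and falls were even in complex III and nearly so in complex IV. Of 88 members, 66 rose, 4 fell and 18 did not pass (limma, 3 leukemic mice against 2 wt arrays, adjusted p under 0.05). This is 75% higher and 4.55% lower, where 31.3% of all 14430 genes were higher and 27.4% lower. The median difference was 0.69 over the members and 0.06 over all genes, and 79 of the 88 lay above the all-gene median. Since nearly all members are well expressed, the 9532 genes above background on all arrays, fitted by themselves, give a closer background. Of these, 44.3% were higher and 18.1% lower, with a median of 0.35. The 66 members that rose were also higher in that fit. Every leukemia array lay above both wt arrays for 67 members and below both for 4; among all genes these shares were 31.9% and 27.7%.

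Array by array, the median member lay 0.79 and 0.73 above the wt mean in leukemia 686, 0.89 and 0.58 in leukemia 713 and 0.85 and 0.53 in leukemia 760. On the dHet arrays it lay 0.44 and 0.40 above, and on the wt arrays -0.09 and 0.09 from it. Each leukemia array was thus above each dHet array, and each dHet array above each wt array. The median of all genes lay 0.01 to 0.18 above the wt mean on the leukemia and dHet arrays. How large the rise is depends on the scaling: the members' median was 1.25 scaled to the array median, 0.32 scaled to probes detected on all arrays, 0.32 after quantile normalization, 0.65 with normexp and 0.28 in the authors' deposited log2 table. It was above the median of all genes in each, but the split of higher against lower calls moved from 66 and 4 to 36 and 7 with quantile normalization and to 39 and 8 in the authors' table. All-gene shares were 26.8% higher and 28.5% lower with quantile normalization, and 26.5% and 28.4% in the authors' table. With slide as a random block 31 members were higher, against 20.6% of all genes. Without wt replicate 1 the members' median was 0.66, against 0.07 over all genes. With leukemia slide 2 alone 59 members were higher, 56 of them among the 66, and with slide 1 alone 64, of which 62 were. Of all genes, 28.3% were higher with slide 2 alone and 32.1% with slide 1 alone. The members' median was 0.59 with slide 2 alone and 0.85 with slide 1 alone, against 0.02 and 0.11 over all genes.

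**Figure D1:**
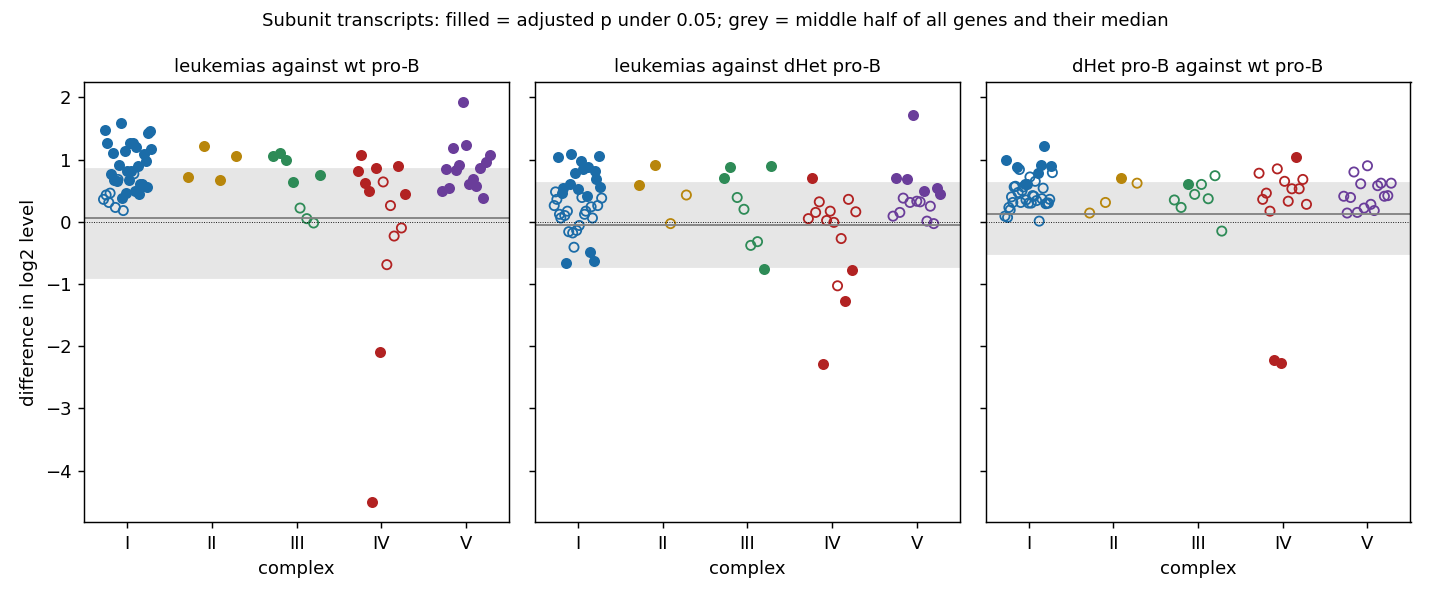
Difference in log2 level (vertical axis) of each tested subunit, by complex (horizontal axis), in the 3 comparisons; each point is a gene, filled where its adjusted p is under 0.05, with the middle 50% of all genes in grey and their median as a grey line. In the left panel all 15 points of complex V and all 4 of complex II are filled and above 0, while complex IV reaches from 1.07 down to -4.51.

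Complex I, the NADH dehydrogenase, had 29 of its 37 genes higher in the leukemias and 0 lower, against wt, with a median difference of 0.77 and all 37 above 0. With quantile normalization 16 were higher and 1 lower, and 20 were higher and 1 lower in the authors' table. The largest rises were in Ndufab1, the mitochondrial acyl carrier protein, Ndufa10, an accessory subunit, and Ndufv2, which carries an iron-sulfur cluster of the NADH-binding module. Ndufab1 read 4.36 and 4.59 in leukemia 686, 4.21 and 3.87 in 713 and 4.58 and 4.55 in 760, against 2.64 and 2.89 in wt pro-B cells. The groups did not overlap, and the difference was 1.59 ± 0.20 (SE), 3.01-fold (adjusted p = 0.0014). Its 3 other probes gave 1.26, 0.56 and 0.44, of which the last missed the threshold (adjusted p = 0.0512), so the size is that of the brightest probe.

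Ndufa10 was 1.48 ± 0.32 higher (2.79-fold, adjusted p = 0.0104), with mouse means of 4.31, 4.02 and 3.23 against 2.38 in wt. Ndufv2 was 1.46 ± 0.15 higher (adjusted p = 0.000857), but a second probe of this gene fell by 1.27 (adjusted p = 0.00538), so its direction rests on the probe. The core subunits of the electron input arm moved by different amounts. Ndufv1, which binds NADH and FMN, rose by 1.42 ± 0.15 (2.68-fold, adjusted p = 0.000881), reading 5.24 to 6.25 on the leukemia arrays and 4.36 and 4.37 on the wt arrays. Ndufs1, the large iron-sulfur subunit, rose by 0.90 ± 0.14, and by 0.56 with leukemia slide 2 alone. Ndufa4, which is named for complex I but is found with complex IV, rose by 1.11 ± 0.18. The 8 genes that missed the threshold had differences between 0.18 (Ndufb11) and 0.77 (Ndufb9).

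All 4 subunits of complex II, the succinate dehydrogenase that also serves the citric acid cycle, were higher than in wt pro-B cells; 3 passed with quantile normalization and 2 in the authors' table. The iron-sulfur subunit Sdhb read 4.82, 4.56, 4.91, 4.37, 5.08 and 4.32 on the leukemia arrays and 3.34 and 3.58 on the wt arrays, without overlap, a rise of 1.22 ± 0.13 (2.32-fold, adjusted p = 0.000845). The membrane anchor Sdhd rose by 1.05 ± 0.15, the catalytic flavoprotein Sdha by 0.72 ± 0.14 and the anchor Sdhc by 0.67 ± 0.12. Of the other Sdha probes, 1 rose by 0.92 (adjusted p = 0.00416) and 1 fell by 0.93 (adjusted p = 0.00184).

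In complex III, 5 of 8 genes rose and 0 fell, with a median of 0.70. With quantile normalization (median 0.23) and in the authors' table (median 0.21), 2 were higher and 2 lower. The small subunits led: Uqcr11 by 1.11 ± 0.12, Uqcr10 by 1.05 ± 0.16 and Uqcrb by 0.99 ± 0.21. Uqcr11 read between 6.31 and 6.78 on the 6 leukemia arrays, all above the wt values of 5.38 and 5.58. The core protein Uqcrc1 rose by 0.64 ± 0.14, and by 0.40 with leukemia slide 2 alone. Uqcrc2, the other core protein, differed by 0.22 ± 0.47 and did not pass, but this rests on leukemia 686 replicate 1, which read 2.83 where the other leukemia arrays read 5.72 to 5.88 and wt 5.09 and 5.10. Without that array Uqcrc2 was 0.72 higher (adjusted p = 0.00501). The Rieske iron-sulfur protein Uqcrfs1 (0.05 ± 0.12) and the hinge protein Uqcrh (-0.02 ± 0.16) did not pass. Uqcrq rose by 0.75 ± 0.15 on its brightest probe, while its other probe fell by 1.63 (adjusted p = 0.018).

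Complex IV, the cytochrome c oxidase, was mixed: 7 of 14 tested genes rose, 2 fell, and the median was 0.47. That median was between 0.01 and 1.03 over the scalings, with 3 higher and 2 lower after quantile normalization and 2 and 3 in the authors' table. Cox5a, which sits next to the catalytic core, rose by 1.07 ± 0.13 (2.10-fold, adjusted p = 0.00148), Cox7b by 0.90 ± 0.13 and Cox6b1 by 0.87 ± 0.12. Cox4i1, the common form of subunit 4, rose by 0.82 ± 0.21; it read 9.19 on leukemia 686 replicate 1 and 7.44 to 8.32 on the others, and the rise was 0.55 without that array and 0.33 with slide 2 alone (adjusted p = 0.0862). Cox8a rose by 0.44 ± 0.13, a rise that was 0.18 with slide 2 alone (adjusted p = 0.295) and turned to -0.10 with quantile normalization and -0.04 in the authors' table. Cox7a2 (0.26 ± 0.18) did not pass.

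The 2 complex IV genes that fell are alternative subunit copies. Cox6a2, the copy known from heart and skeletal muscle, read 4.39 and 4.37 in wt pro-B cells, 2.41 and 1.91 in dHet pro-B cells, -0.15 and -0.47 in leukemia 686, 0.76 and 0.64 in 713 and -0.50 and -1.05 in 760. The 3 sets of arrays did not overlap at any point. The leukemias were 4.51 ± 0.44 below wt (22.7-fold, adjusted p = 0.000702) and 2.29 ± 0.44 below dHet cells (4.88-fold, adjusted p = 0.00929), and the probe, at chr7:135349160-135349219 on mm9, was well above background on all 10 arrays. Without dHet replicate 1 the difference from dHet cells was 2.04 in the same direction and did not pass (adjusted p = 0.0697). The common copy Cox6a1 went the other way, reading 8.34 to 8.80 in the leukemias and 8.04 and 8.17 in wt, a rise of 0.49 ± 0.14 (adjusted p = 0.0285).

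Cox6b2, the copy known from testis, read 0.43 and 0.31 in wt pro-B cells, -1.66 and -2.15 in dHet cells and -2.84 to -0.50 in the leukemias, where it was well above background on 5 of 6 arrays. It fell by 2.10 ± 0.42 against wt (4.30-fold, adjusted p = 0.00742) and differed by 0.17 ± 0.42 from dHet cells. Cox6b1 on the same arrays read 2.94 to 3.60 in the leukemias and 2.39 and 2.48 in wt. Of the subunit 7a copies, Cox7a1, known from muscle, differed from wt by -0.69 ± 0.61, and Cox7a2l, which takes part in joining complexes III and IV, by -0.23 ± 0.25; neither passed.

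**Figure D2:**
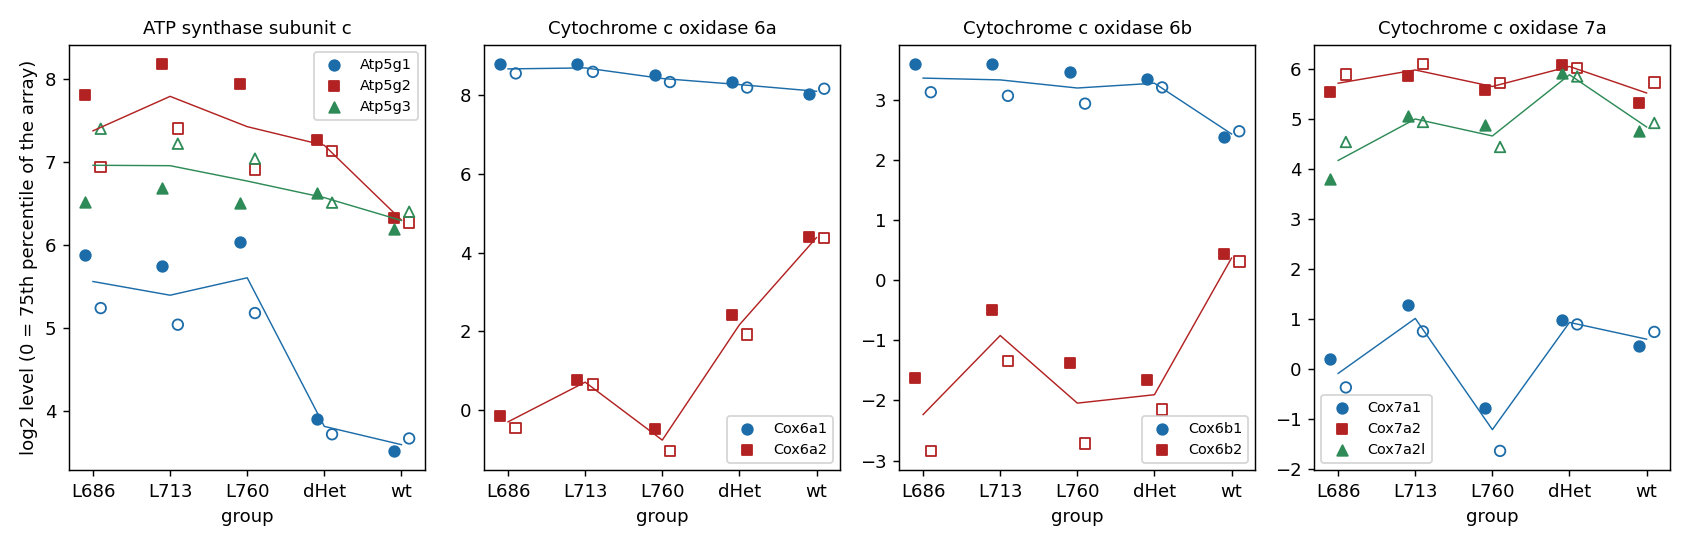
Log2 level (0 is the 75th percentile of the array) of alternative copies of 4 subunits in each group; each symbol is an array (filled replicate 1, open replicate 2) and lines join group means. Levels are to be compared within a gene: Atp5g1 is above 5 on every leukemia array and below 4 on every pro-B array, and Cox6a2 falls from 4.39 and 4.37 in wt cells to 0.76 or less in the leukemias.

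For complex V, the ATP synthase, all 15 tested genes were higher than in wt pro-B cells, with a median of 0.85 and a range of 0.38 (Atp5k) to 1.92 (Atp5g1). The count was 7 with quantile normalization, 8 with normexp, 8 in the authors' table and 9 scaled to detected probes, with 0 lower in each and a lowest median of 0.33. Atp5g1, Atp5g2 and Atp5g3 encode the same mature subunit c, the ring that turns in the membrane, with different targeting sequences. Atp5g1 read 5.88 and 5.24 in leukemia 686, 5.75 and 5.04 in 713 and 6.03 and 5.18 in 760, against 3.91 and 3.72 in dHet cells and 3.52 and 3.67 in wt cells. Every leukemia array was thus above every pro-B array, and the dHet values lay just above the wt values. The rise was 1.92 ± 0.14 against wt (3.79-fold, adjusted p = 0.000359) and 1.71 ± 0.14 against dHet cells (3.26-fold, adjusted p = 0.0009), and it kept its direction and passed under every alternative run for these comparisons. Its probe lies at chr11:95934924-95934983 on mm9.

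Atp5g2 rose by 1.23 ± 0.17 and Atp5g3 by 0.60 ± 0.14 against wt. Atp5g2 was 0.78 higher with leukemia slide 2 alone, and Atp5g3 was 0.28 higher with slide 1 alone (adjusted p = 0.153) and -0.19 in the authors' table. Atp5d, the delta subunit of the central stalk, rose by 1.18 ± 0.13, though its leukemia arrays read 5.89 to 6.09 on slide 1 and 4.94 to 5.15 on slide 2, against 4.39 and 4.28 in wt. The catalytic subunit Atp5b read 7.68 to 8.19 in the leukemias and 7.01 and 7.03 in wt, a rise of 0.85 ± 0.11 (1.80-fold, adjusted p = 0.00186). The other subunits of the catalytic head rose less, Atp5a1 by 0.49 ± 0.12 and the rotor gene Atp5c1 by 0.54 ± 0.13, and these turned to -0.17 and -0.05 in the authors' table. Another probe of Atp5j2 fell by 1.35, and the other probes of Atp5f1 gave 0.71 and -1.29, both past the threshold. Over all members, 37 further probes were measured: 22 gave the same call as the brightest probe against wt, 6 the opposite call, and for 9 only 1 of the pair passed.

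**Figure D3:**
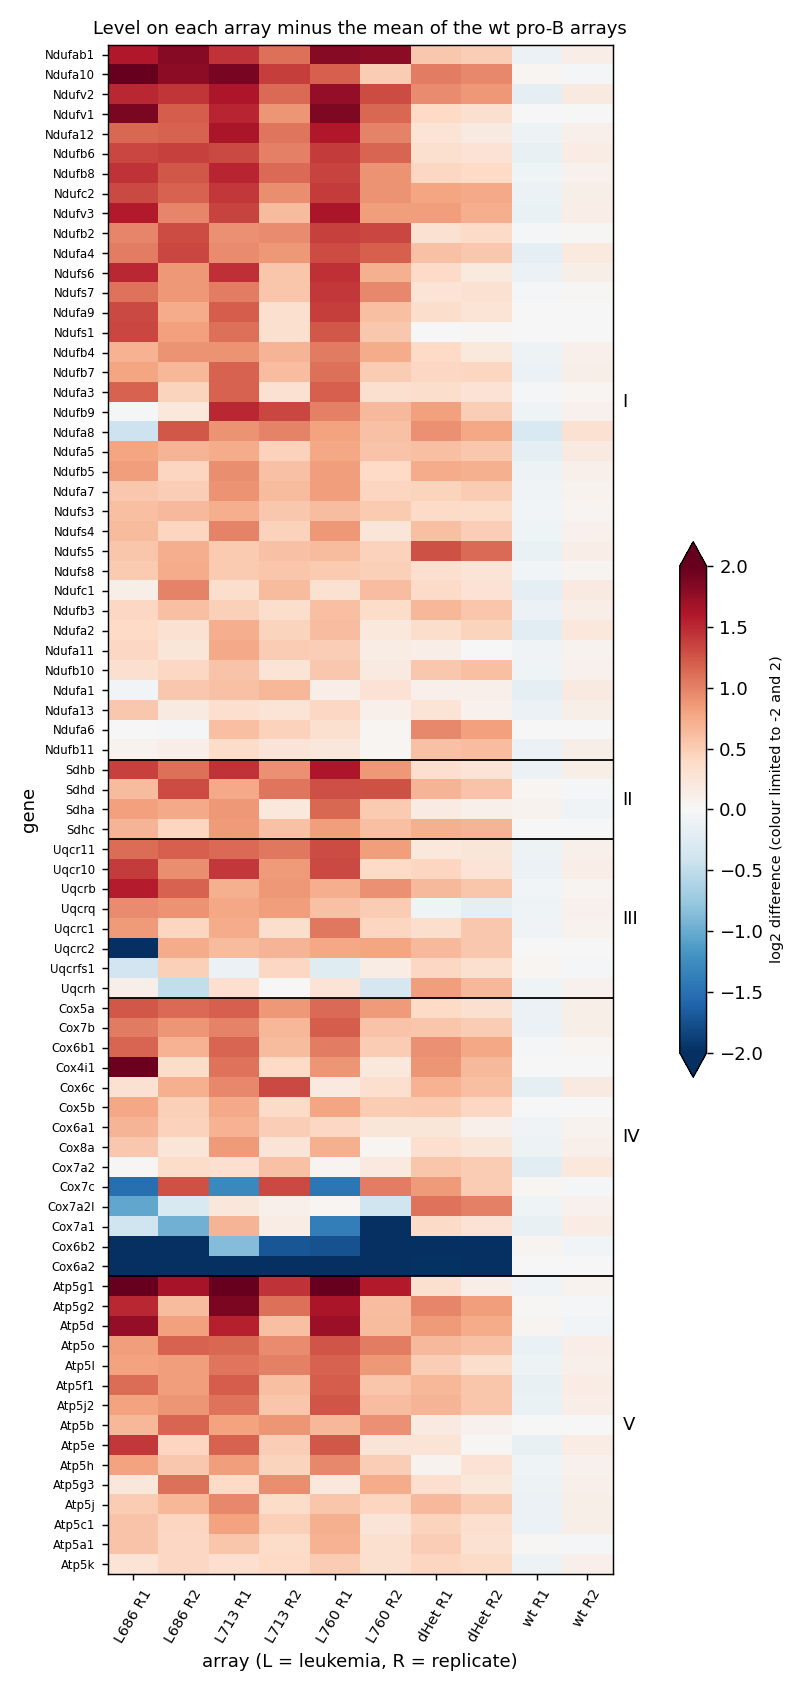
Log2 level of the tested subunits described here (rows, grouped by complex and ordered by their difference from wt) on each of the 10 arrays (columns), as the difference from the mean of the wt arrays, with colour limited to -2 and 2. Red is spread over the leukemia columns in complexes I, II and V, weaker red over the dHet columns, and blue is concentrated in the lower rows of complex IV, where Cox7c changes colour between the replicates of each leukemia.

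Of the 7 Ndufaf assembly factors, which help to build complex I without being part of it, 5 rose and 1 fell. Ndufaf4 read 3.55, 3.38, 3.28, 2.71, 3.43 and 3.14 on the leukemia arrays, 0.85 and 0.75 in dHet cells and 1.23 and 1.33 in wt cells. It rose by 1.97 ± 0.17 against wt (3.91-fold, adjusted p = 0.000524) and by 2.45 ± 0.17 against dHet cells (5.46-fold, adjusted p = 0.000683), and its other probe by 1.51 and 2.01. Ndufaf2 rose by 1.89 ± 0.21 and Ndufaf6 by 1.54 ± 0.19 against wt, while Ndufaf3 fell by 0.60 ± 0.14 (0.32 with slide 1 alone, adjusted p = 0.133). Atp5sl fell by 0.67 ± 0.17, Atp5s differed by 0.25 ± 0.32, and the pseudogene Atp5c1-ps, which may share signal with Atp5c1, rose by 0.56 ± 0.14.

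Against the dHet pro-B cells, which carry the same heterozygous Ebf1 and Pax5 alleles, the leukemias differed less. Of the 88 members 31 rose, 7 fell and 50 did not pass, which is 35.2% higher and 7.95% lower where 21.8% of all genes were higher and 24.4% lower. The median difference was 0.31 over the members and -0.06 over all genes. Among the 9532 genes above background on all arrays, fitted by themselves, 29.3% were higher and 22.7% lower, with a median of 0.08. The 35.2% of members that rose is not far above that 29.3%, though the shares come from different fits. The share of members that fell was well below 22.7%. In the fit of the 9532 genes the members' median was 0.31. By complex, 15 of 37 genes rose and 3 fell in complex I, 2 of 4 rose in complex II, 3 of 8 rose and 1 fell in complex III, 1 of 14 rose and 3 fell in complex IV, and 6 of 15 rose in complex V. Leukemia arrays were all above the dHet arrays for 34 members and all below for 7, against 24% and 26.1% of all genes. The count of rises was 22 with leukemia slide 2 alone (19.1% of all genes), 13 and 10 without dHet replicate 1 and 2 (10.9% and 10.7% of all genes) and 9 with slide as a random block, where 13% of all genes were higher.

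In complex I the largest rises against dHet cells were in Ndufab1 (1.09 ± 0.20), Ndufv1 (1.06 ± 0.15) and Ndufa12 (1.04 ± 0.13), an accessory subunit, and in complex III in Uqcrq (0.90 ± 0.15), Uqcr11 (0.88 ± 0.12) and Uqcr10 (0.70 ± 0.16). Uqcr10 was 0.38 higher with leukemia slide 2 alone and did not pass (adjusted p = 0.176). Sdhb rose by 0.91 ± 0.13 and Sdha by 0.59 ± 0.14, while Sdhd (0.43 ± 0.15) and Sdhc (-0.03 ± 0.12) did not pass. The Sdha rise was 0.36 with slide 2 alone (adjusted p = 0.172), and its other probes gave 0.15 and -0.34 without passing. Against dHet cells 22 of the 37 further probes gave the same call as the brightest probe, 1 the opposite call, and for 14 only 1 of the pair passed. In complex IV only Cox5a rose, by 0.71 ± 0.13, and in complex V Atp5g1, Atp5b (0.71 ± 0.11) and Atp5e (0.68 ± 0.15) led; Atp5e was 1.13 higher with slide 1 alone and 0.24 with slide 2 alone (adjusted p = 0.275).

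Apart from Cox6a2, 6 members were lower in the leukemias than in dHet cells, of which 5 are described. Cox7a2l read 5.92 and 5.85 in dHet cells, 4.76 and 4.92 in wt cells and 3.80 to 5.06 in the leukemias, so the dHet cells stood above both other groups; the leukemias were 1.27 ± 0.25 below them (2.41-fold, adjusted p = 0.0105). The complex I genes Ndufa6 (-0.66 ± 0.19) and Ndufs5 (-0.63 ± 0.13) and the complex III gene Uqcrh (-0.76 ± 0.16) also had both dHet arrays above all leukemia and wt arrays. For Ndufs5 the dHet arrays read 7.97 and 7.83, the leukemia arrays 7.15 to 7.41 and the wt arrays 6.56 and 6.82. Cox7c was 0.78 ± 0.16 below dHet cells, but its leukemia arrays read -1.32 to -1.11 on slide 1 and 1.21 to 1.51 on slide 2, and with slide 2 alone it was 0.53 above dHet cells (adjusted p = 0.0482).

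Between the cultured dHet and the sorted wt pro-B cells, 11 members rose in dHet cells, 2 fell and 75 did not pass (5 groups of 2 arrays in the fit), 12.5% and 2.27% where 16.7% of all genes were higher and 14.8% lower. That fit takes its spread mostly from leukemia arrays on different slides, while all 4 pro-B arrays lie on slide 3. With these 4 arrays alone, 54 members rose and 4 fell, against 34.9% and 26.5% of all genes. With scan day as a block 49 members rose, where 31.8% of all genes did. The dHet arrays were both above the wt arrays for 75 members and both below for 6, against 48.6% and 35.5% of all genes, and the median difference was 0.41 over the members and 0.13 over all genes. Under quantile normalization these medians were 0.10 and 0.05. Among the 9532 genes above background on all arrays, fitted by themselves, 23% were higher in dHet cells and 10.3% lower, with a median of 0.25. These shares are not to be set against the 12.5% and 2.27% of the main fit. The members' median in the fit of the 9532 genes was 0.41, and its member counts are given in the last section. The main calls came to 8 genes of complex I, 1 each of complexes II, III and IV that rose, and Cox6a2 and Cox6b2 that fell.

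Ndufs5, a small subunit on the intermembrane side of complex I, rose most, by 1.21 ± 0.17 (2.31-fold, adjusted p = 0.00237), and Ndufa10 by 1.00 ± 0.28. Sdhc rose by 0.70 ± 0.18, reading 3.49 and 3.45 in dHet and 2.76 and 2.79 in wt cells, and the leukemias (3.21 to 3.63) lay around the dHet values. Uqcrb rose by 0.60 ± 0.19 and Cox7a2l by 1.04 ± 0.27. Cox6a2 fell by 2.22 ± 0.26 (4.66-fold, adjusted p = 0.00095) and Cox6b2 by 2.27 ± 0.56 (4.84-fold, adjusted p = 0.0208). By limma, 0 of the 15 complex V genes passed here, with differences of 0.14 to 0.90; 4 had an unadjusted p under 0.05, and 10 passed in the fit of the 4 pro-B arrays alone. The Cox6b2 call was lost without any 1 of the 4 pro-B arrays. Atp5g1 (0.22 ± 0.37) and Ndufs1 (0.01 ± 0.34) passed in neither fit.

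Few members differed among the 3 leukemias. By limma's F test over the 3 leukemias, 3 of 88 members (3.41%) differed where 16.3% of all genes did, and the median range of the 3 mouse means was 0.20 in complex I and 0.16 in complex V. The complex I subunit Ndufb9 read 5.21 and 5.46 in leukemia 686, 6.75 and 6.58 in 713 and 6.25 and 5.90 in 760. The others were Cox6a2 and Cox7a1, both highest in leukemia 713 and lowest in 760. With scan day as a block 13 members differed, where 36.8% of all genes did.

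Genes of the same machinery outside the name patterns were read from lists. Of the 9 tested genes of a list of subunits outside the name patterns, which includes cytochrome c, 4 rose and 1 fell against wt. All-gene shares were 31.3% higher and 27.4% lower. Cyc1, the cytochrome c1 subunit of complex III, read 5.78 to 6.52 in the leukemias, 4.45 and 4.48 in dHet cells and 4.73 and 4.80 in wt cells, and rose by 1.40 ± 0.13 and 1.71 ± 0.13 against wt and dHet cells. Cycs, cytochrome c itself, rose by 1.35 ± 0.19 and 2.12 ± 0.19 in the same order, and was 0.77 ± 0.16 lower in dHet than in wt cells. Transcripts of the mitochondrial genome showed another pattern. COX2, a catalytic subunit of complex IV, read 7.83 to 8.90 in the leukemias, 9.68 and 9.21 in dHet cells and 9.23 and 9.07 in wt cells. It fell by 0.84 ± 0.19 against wt (adjusted p = 0.0129) and by 1.14 ± 0.19 against dHet cells (adjusted p = 0.00646).

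CYTB of complex III and ND4 of complex I fell against dHet cells, by 0.71 ± 0.21 and 0.66 ± 0.19, calls that were lost with slide as a random block (adjusted p = 0.0918 and 0.156), array-median scaling (0.153 and 0.188), normexp (0.112 and 0.108) and leukemia slide 2 alone (0.0709 and 0.101). They differed from wt by -0.27 ± 0.21 and -0.22 ± 0.19 without passing. ATP6 of complex V differed by 0.21 ± 0.22 from wt and -0.56 ± 0.22 from dHet cells. The size depends on scaling and slide: against wt, COX2 was -0.28 scaled to the array median, -1.07 in the authors' table, -0.48 with leukemia slide 2 alone (adjusted p = 0.117), and not past the threshold with slide as a random block (adjusted p = 0.155), nor was it there against dHet cells (adjusted p = 0.0934). CYTB and ND4 passed as lower than wt under 3 of the scalings: probes detected on all arrays, quantile normalization and the authors' table. With the array-median scaling CYTB, ND4 and ATP6 were 0.29, 0.35 and 0.78 above wt, where the members' median was 1.25. The COX2 difference was below the members' median in each scaling and on either slide.

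**Figure D4:**
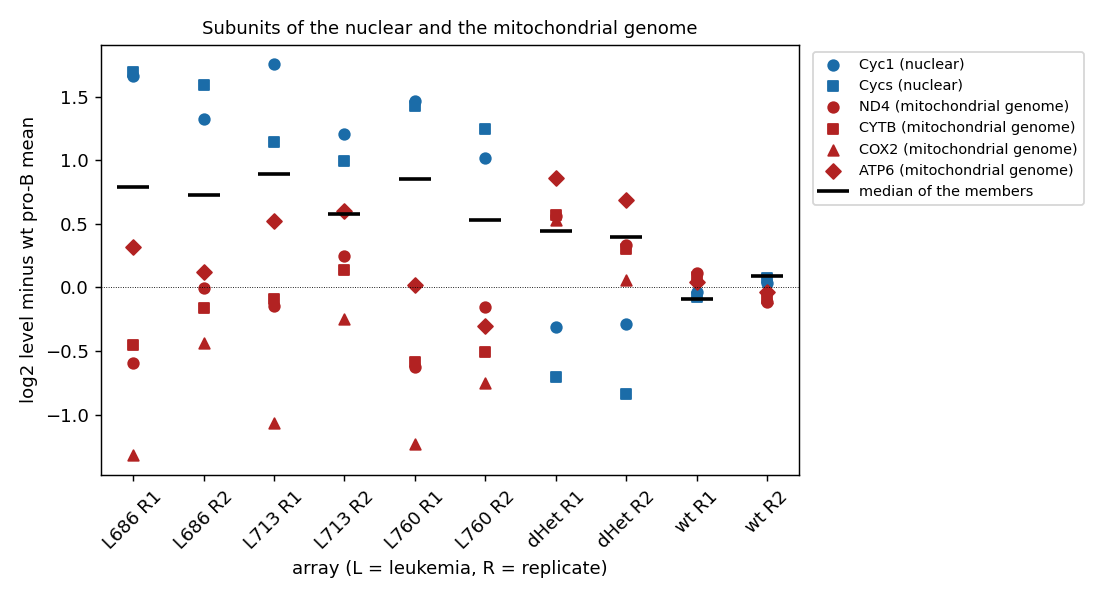
Log2 level on each of the 10 arrays (horizontal axis) minus the mean of the wt arrays (vertical axis) for the nuclear genes Cyc1 and Cycs, 4 transcripts of the mitochondrial genome and the median of the 88 members (black bars). On the leukemia arrays Cyc1 and Cycs lie above the bars and COX2 lies below 0; on the dHet arrays Cyc1 and Cycs lie below 0.

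Other lists around the machinery were described by counts only. Against wt, 31.3% of all genes were higher and 27.4% lower. Of 29 genes of mitochondrial import and proteostasis, 25 rose against wt and 0 fell (median 1.33), led by Timm8a1 (2.61), the chaperone Hspa9 (2.56) and Hspd1 (2.39), the mitochondrial HSP60. Of 42 further assembly factors of complexes I to V, 26 rose and 4 fell (median 0.58). The counts were 12 and 5 scaled to detected probes (median 0.22) and 16 and 4 after quantile normalization (median 0.3). Of all genes, 20.5% were higher and 37.9% lower scaled to detected probes, and 26.8% and 28.5% after quantile normalization. Uqcc2, an assembly factor of complex III, rose by 2.40, Tmem70 of complex V by 1.89 and Nubpl of complex I by 1.86, while the copper chaperone Cox17 fell by 2.18, Timmdc1 by 1.73 and Sdhaf2 by 0.65. The Cox17 value rests on slide 1, where the leukemias read 2.47, 4.16 and 4.18; on slide 2 they read 6.74, 7.22 and 6.95, against 7.80 and 7.13 in wt, and the difference with slide 2 alone was -0.50 (adjusted p = 0.175). With slide as a random block Timmdc1 (adjusted p = 0.0758) and Sdhaf2 (0.0606) did not pass, and Sdhaf2 did not with slide 1 alone (0.0567). Of 20 inner membrane carriers and channels, 14 rose and 2 fell (median 0.80), with the aspartate-glutamate carrier Slc25a13 at 4.04, the citrate carrier Slc25a1 at 3.25 and Slc25a33 at 1.90; Slc25a36 fell by 1.58. Of 17 electron carriers and coenzyme Q genes, 10 rose and 1 fell (median 0.57). Pdss1, which makes the coenzyme Q tail, rose by 1.66 and Coq7 fell by 1.72. Over the scalings the medians ran from 0.9 to 1.89 for import, 0.22 to 1.15 for assembly factors and 0.44 to 1.37 for carriers and channels. They ran from 0.21 to 1.14 for electron carriers. Against dHet cells the counts higher and lower were 20 and 2, 13 and 5, 10 and 1, and 9 and 1 in that order. Of all genes 21.8% were higher there and 24.4% lower. Nubpl (0.55, adjusted p = 0.189), Slc25a1 (0.98, 0.0724) and Coq7 (-0.32, 0.0925) did not pass there.

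The 20 regulators and mitochondrial DNA maintenance genes were mixed, with 6 higher and 5 lower against wt. This is near the shares of all genes, 31.3% higher and 27.4% lower. The median of the list was 0.11 and ran from -0.26 to 0.67 over the scalings. The coactivators Ppargc1b (2.19 ± 0.25) and Pprc1 (2.10 ± 0.19) rose, as did Ssbp1 (1.15 ± 0.13), which coats mitochondrial single-stranded DNA. Nrf1, the factor whose motif was searched above, fell by 1.90 ± 0.15, and Tfam, which packages mitochondrial DNA, fell by 1.49 ± 0.28. Ppargc1a was not well above background on any leukemia or dHet array and was at least 16.5-fold lower in the leukemias than in wt cells (adjusted p = 0.00052), computed from the dimmest probe above background on each array. Of the factors for the other motifs searched, looked up after the list was read, Yy1 rose by 0.41 and Gabpb1, the partner of the ETS factor Gabpa, by 0.71, while Gabpa (0.30 ± 0.11) did not pass. With slide 2 alone Tfam differed by -0.96 and Gabpb1 was 0.28 higher (adjusted p = 0.124). With slide 1 alone Yy1 did not pass (adjusted p = 0.0651). With slide as a random block Tfam (adjusted p = 0.10), Yy1 (0.169) and Gabpb1 (0.162) did not. Against dHet cells 8 of the 20 were higher and 1 lower, where 21.8% and 24.4% of all genes were. Nrf1 differed from dHet cells by -0.22 (adjusted p = 0.274) and Yy1 by 0.17 (adjusted p = 0.265) without passing. Tfam was 2.15 below dHet cells (adjusted p = 0.00291).

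Markers of other cell types were read on the same arrays. Each summed level is the log2 of the summed intensities of a list, so it mostly follows the brightest genes of that list. For the counts below, 31.3% of all genes were higher and 27.4% lower against wt, and 21.8% and 24.4% against dHet cells. The level summed over 13 T cell markers was 4.17 to 6.52 on the leukemia arrays, 3.82 and 4.18 on the dHet arrays and 2.63 and 2.76 on the wt arrays; 6 of 13 rose against wt and 0 fell, while Cd4 and Cd28 were well above background on 0 arrays. Over 13 myeloid markers the summed level was 3.84 to 7.18, 4.44 to 4.59 and 6.32 to 7.29 in the same order, with 1 higher and 6 lower against wt; Elane, Cd14 and Csf3r were on 0 arrays. Over 6 erythroid markers it was 0.85 to 7.29, -2.23 to -1.55 and 1.16 to 1.68, with 0 higher and 1 lower and Klf1 on 0 arrays. The 7 NK and cytotoxic markers summed to 4.49 to 5.53, 4.14 to 4.30 and 1.61 to 1.95 (2 higher and 0 lower against wt, Ncr1 on 0 arrays), the 5 stromal markers to 2.26 to 5.16, 1.14 to 1.90 and 0.90 to 1.59 (2 higher and 1 lower), and the 6 plasma cell markers to 7.04 to 7.97, 7.08 to 7.24 and 6.30 to 6.36 (1 higher and 3 lower). A further 7 stromal genes were not tested, and Col1a1, Pdgfra, Pdgfrb, Cxcl12 and Lum were on 0 arrays. Thy1 was counted in both the stromal and the T cell list. The 13 pro-B markers summed to 10.34 to 10.88 in the leukemias, 11.31 to 11.44 in dHet and 10.92 to 10.95 in wt cells, so all samples carried B-lineage transcripts; 2 of them were higher and 7 lower in the leukemias than in wt. Against dHet cells, 4 of 13 T cell markers were higher and 1 lower, 2 of 7 NK markers higher, 3 of 6 erythroid markers higher and 1 lower, 2 of 13 myeloid markers higher and 1 lower, 1 of 5 stromal markers higher, 2 of 6 plasma cell markers higher and 3 lower, and 9 of 13 pro-B markers lower with 0 higher. The part of these cells in the member differences was not tested, and in bulk RNA fewer cells of a type and less RNA per cell cannot be told apart.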

How the data were processed

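The deposited scanner files hold 1 colour per array. Per the file headers, intensities were background-subtracted and detrended by Agilent Feature Extraction with no normalization between arrays; the submitters' processing notes name version 9.1 and the headers a later version. The authors' deposited log2 table, whose normalization is not given in the sources used here, was an alternative. Here log2 of the processed intensity was taken minus each array's 75th percentile, a gene was read by its brightest probe, and 14430 genes, each well above background on every array of 1 or more groups, entered the fits (limma 3.58.1, R 4.3.3; Benjamini-Hochberg adjustment, threshold 0.05). Leukemias were compared with pro-B cells over 7 samples (3 mouse means and 4 arrays, 4 residual degrees of freedom); dHet against wt cells and the F test used 10 arrays (5 residual degrees of freedom). Errors are standard errors. Figures were drawn with matplotlib 3.10.9.

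Members, gene lists and tests were chosen with earlier results of these data known. Genes were named by rule: per complex and comparison the 3 largest rises and falls past the threshold, all Sdh genes, alternative copies, core subunits and, from other lists, 3 in each direction. A few genes that this rule names are counted but not reported here. Probes were named through RefSeq accessions or symbols, and 7208 kept the name in the file. Promoters are RefSeq windows on GRCm38.p6, the first listed per gene; probe positions are mm9. Replicate numbers did not pair the groups: deviations of same-numbered arrays correlated at 0.44 to 0.63 among leukemias, where the number is also the slide, and at -0.03 to 0.08 elsewhere.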

Additional observations from a re-analysis of the deposited data

Results flagged for a closer look

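The 3 leukemias differed in 3 members by limma's F test. The mouse means of Cox7a1 spanned 2.23 on the log2 scale (adjusted p = 0.0122): its arrays read 0.19 and -0.37 in leukemia 686, 1.27 and 0.75 in 713 and -0.79 and -1.64 in 760, against 0.97 and 0.89 in dHet and 0.45 and 0.74 in wt pro-B cells. Those of Cox6a2 spanned 1.47 (adjusted p = 0.0185), with both arrays of leukemia 713 above 0 and the other 4 below. Those of Ndufb9 spanned 1.33 (adjusted p = 0.0135), with leukemia 686 lowest and 713 highest. Each order of the mice holds on both slides.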

How the results depend on the processing

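Against wt, 66 members rose and 4 fell. The counts were 38 higher with scaling to probes detected on all arrays, 36 and 7 with quantile normalization, 35 and 2 with normexp, 39 and 8 in the authors' table and 31 and 2 with slide as a random block; 2 fell with array-median scaling. Of the 66, the first 5 of these settings kept 38, 35, 35, 38 and 31. Over all genes 20.5%, 26.8%, 19%, 26.5% and 20.6% were higher in the same order. Against dHet cells (31 and 7), 9 rose and 2 fell with normexp, and 9 and 1 with slide as a random block. With arrays as replicates 20 rose. Of all genes 10.9%, 13% and 22.7% were higher in these settings, in that order. With array-median scaling 1 member fell, and 11 did in the authors' table. For dHet against wt (11 and 2) the counts were 0 and 1 with normexp, 1 and 1 with no filter on dim probes, 20 and 1 with genes detected on all arrays, 42 and 4 with slide as a random block, 54 and 4 with the pro-B arrays alone, and 49 and 4 where scan day was a block. There 4 fell with scaling to detected probes, 6 with quantile normalization and 5 in the authors' table. Rises over all genes were 1.48% with normexp, 4.11% with no dim filter and 23% with genes detected on all arrays. They were 29.4% with the slide block, 34.9% with the pro-B arrays alone and 31.8% with the scan day block. With the replicate block 17 rose between dHet and wt cells and 5 members differed among leukemias; of the 66 rises against wt it kept 62. Differences among leukemias (3) numbered 5 with scaling to detected probes, 0 with normexp or no dim filter and 9 in the authors' table. They numbered 11 with slide as a random block and 13 with scan day as a block. Of all genes 19.3% differed with scaling to detected probes, 2.38% with normexp and 4.06% with no dim filter. The share was 18% in the authors' table, 34.3% with the slide block and 36.8% with the scan day block.

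Leaving out 1 array or mouse gave 41 to 68 rises and 1 to 5 falls against wt, the lowest of each without wt replicate 1. It gave 10 to 35 and 0 to 11 against dHet cells, lowest without dHet replicate 2 and dHet replicate 1, and 1 to 16 and 1 to 2 for dHet against wt, with 1 or 2 rises and 1 fall without any single pro-B array. Among leukemias it gave 0 (without 713 replicate 1) to 8 (without 686 replicate 2). Leaving out a pro-B array left 1 array in its group, and fewer of all genes passed then too. Against wt the members' median was 0.66 without wt replicate 1 and 0.82 without wt replicate 2. Over all genes it was 0.07 and 0.05. Against dHet cells it was 0.37 and 0.26 without dHet replicate 1 and 2, and -0.04 and -0.08 over all genes. Among leukemias, calls over all genes moved the same way in the fits with the lowest and highest member counts. Directions against wt turned for Atp5a1 (-0.01 with quantile normalization, -0.17 in the authors' table), Cox8a (-0.10 and -0.04), Atp5c1 (-0.05), Atp5g3 (-0.19) and Ndufs5 (-0.01) in the authors' table, and Uqcrq (-0.44) with the mean of its probes. Ndufv2 between dHet and wt cells turned to -0.03 with the mean of its probes. Cox7c against dHet cells turned to 0.53 with slide 2 alone. Scan day as a block takes this difference from the same arrays and gave the same value. The causes were not tested. The slide 1, slide 2 and pro-B alternatives were chosen after seeing the data. The number of arrays limits precision, and Cox6b2 was near background.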
